A study of Oryza sativa with 24 samples.

Results

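Gibberellin metabolism and signalling genes were followed by RNA sequencing in young inflorescences of rice (Oryza sativa, line 9522). The genes were chosen by locus identifier: GA20ox1 (LOC_Os03g63970), SD1/GA20ox2 (LOC_Os01g66100), GA20ox3 (LOC_Os07g07420), GA3ox2 (LOC_Os01g08220), GA2ox1 (LOC_Os05g06670), GA2ox3 (LOC_Os01g55240), GA2ox6 (LOC_Os04g44150), EUI1 (LOC_Os05g40384), SLR1 (LOC_Os03g49990) and GID1 (LOC_Os05g33730). Of these 10 genes, 9 were among the 26480 loci of the count table, and all 9 passed the filter on low counts. GA20ox3 was not analysed here. The study addressed inflorescence development of the tap mutant at high temperature. Its 8 groups were the wild type (WT) and the tap mutant, each with inflorescences 2 mm or 3 mm long, each at a high or a low temperature, with 3 libraries per group and 24 in all. The sample titles call the mutant ild and the genotype field calls it tap. All groups carry the line name 9522, and the mutated locus, the number of mutant lines, the degrees and how long plants were treated are not given in the sources. Whether the 3 libraries of a group are from different plants is not stated, so the spread behind each p-value may be technical.

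Gibberellins are plant hormones that promote stem elongation and flower development. The 20-oxidases and 3-oxidases carry out the last steps that yield the active hormones, and SD1/GA20ox2 is the gene whose loss gave semidwarf rice. The 2-oxidases and the cytochrome P450 EUI1, named after the elongated uppermost internode of its mutant, inactivate gibberellins. GID1 is the soluble receptor, and the DELLA protein SLR1 represses growth until hormone-bound GID1 leads to its breakdown. Transcription of 20-oxidase and 3-oxidase genes is known to fall, and that of 2-oxidase genes to rise, when active gibberellin is plentiful. In tobacco, a KNOX homeobox protein of the shoot meristem represses a 20-oxidase gene, and in rice GA2ox1 is expressed around the shoot apex.

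The libraries held between 19819257 and 21305381 counts. All 8 markers of young inflorescence and spikelet meristems were present, with summed levels between 1099 and 2494 CPM (counts scaled to library size) per library. They were OSH1, MADS14, MADS15, MADS34, MADS1, LAX1, FZP and TAW1. MADS15, OSH1 and MADS14 made up most of each sum, and single markers differed in direction. At high temperature MADS1 was lower in tap, with means of 58.3 against 322 CPM at 2 mm and 89.8 against 307 CPM at 3 mm. The sums of all 8 were higher in tap than in WT without overlap in 3 of 4 genotype comparisons. They were 1837 to 2258 against 1512 to 1835 CPM at 3 mm and high temperature, with 3 of 8 markers called higher in tap and 2 lower. At low temperature they were 1571 to 1672 against 1266 to 1360 CPM for 2 mm, with 2 called higher, and 1368 to 1426 against 1099 to 1199 CPM for 3 mm, with 3 called higher. The sums overlapped at 2 mm and high temperature (2052 to 2494 against 2047 to 2231 CPM), where 2 were called higher and 1 lower. Of 4 markers of the tapetum of later anthers 3 were in the table, with sums of 2.18 to 9.46 CPM. Summed levels of 6 green leaf markers ran from 32.2 to 207.5 CPM per library. At high temperature they were higher in every tap library (63.7 to 124.7 CPM) than in every WT library (32.2 to 49.9 CPM), and 2 of 6 at 2 mm and 3 of 6 at 3 mm were called higher in tap. The part of leaf RNA or of a different share of meristem tissue in the differences below was not tested. The deposited loci were those found at low temperature: each locus summed to at least 10 counts over those 12 libraries, while 723 loci were at 0 in all 12 high-temperature libraries. The high-temperature columns of the mutant are named iHT and were assigned to tap by inference, since the remaining ones are labelled WT. It is not stated whether the high- and low-temperature libraries were processed together, so temperature and any difference in handling cannot be told apart. In bulk tissue, fewer cells of a type and less RNA per cell cannot be told apart either. The strand setting of the counting is not given, so reads of overlapping or antisense loci cannot be separated from those of the genes named. CPM values use TMM-scaled library sizes and are not divided by gene length, so levels are compared between groups for 1 gene and not between genes.

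**Figure D1:**
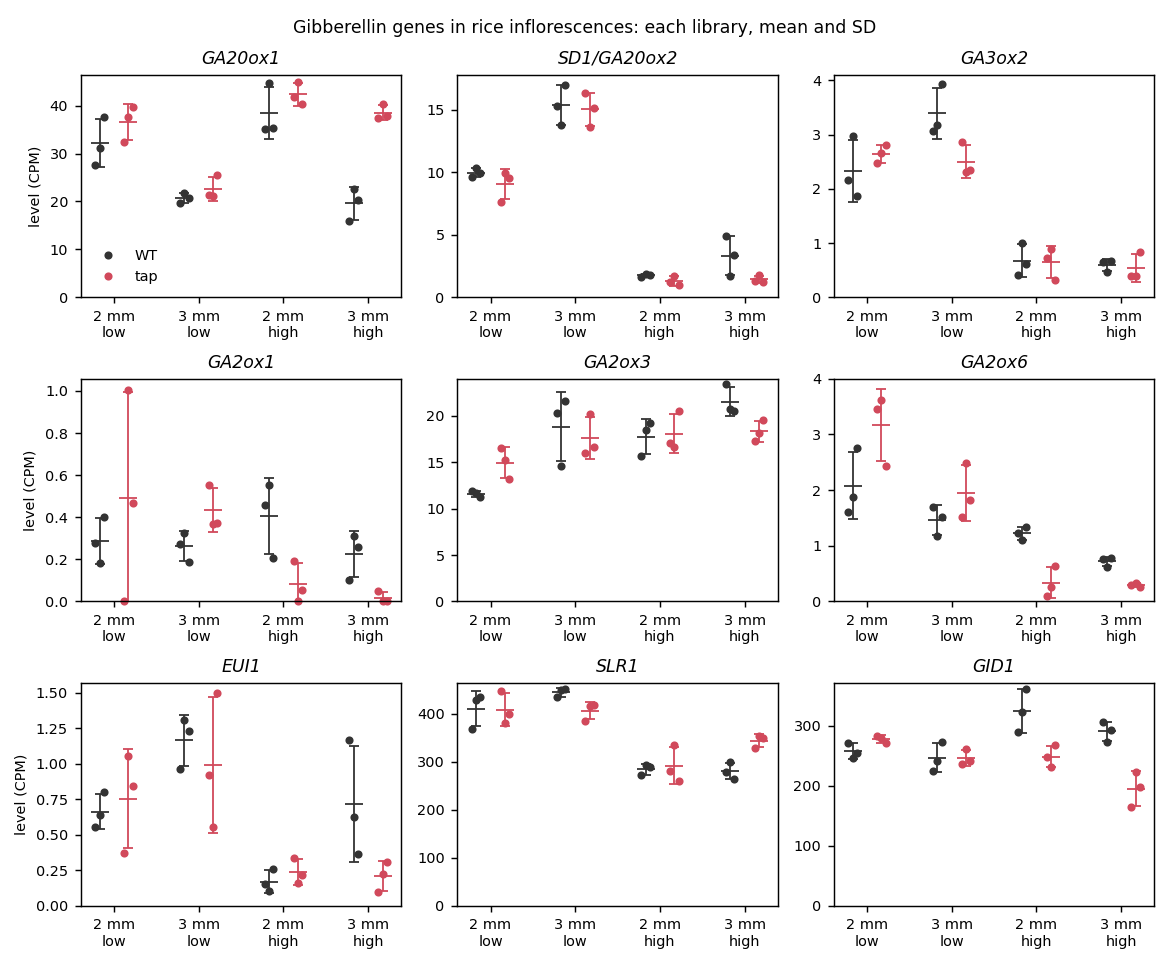
Level of each of the 9 gibberellin genes in CPM (vertical axes, each panel with its own scale starting at 0) in the 8 groups, WT in black and tap in red. Points are single libraries and the bar gives mean ± SD over 3 libraries. SD1/GA20ox2 and GA3ox2 lie lower at high than at low temperature in both genotypes, while GA20ox1 at 3 mm and high temperature spans 37.3 to 40.3 CPM in the mutant and 15.9 to 22.5 CPM in WT.

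The comparison of tap with WT asked which genes differed with the genotype at each length and temperature. A gene is called here at an adjusted p under 0.05 (edgeR quasi-likelihood F test, Benjamini-Hochberg adjustment over 23658 loci), and differences are log2 values, tap minus WT, with their standard error (SE). At high temperature the mutant had a changed set of transcripts at several steps: more GA20ox1 and SLR1, and less SD1/GA20ox2, GA2ox6, EUI1 and GID1, in inflorescences of 3 mm. The EUI1 call, counted with the others below, is given as a description only. That gene passed the filter on low counts chiefly through low-temperature groups. At 2 mm and high temperature only GA2ox6 and GID1 were called, both lower in tap. At low temperature no member was called at either length.

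At 3 mm and high temperature, 2 of 9 members were called higher in tap and 4 lower, against 37.1% of all loci called, 19.3% higher and 17.8% lower. The median difference of the members was -0.58, against 0 over all loci. It includes EUI1 and GA2ox1, which passed the filter on low counts largely through groups in which they were higher. This median and the other medians of tap against WT given below thus depend on that selection. At 2 mm and high temperature, 0 members were called higher and 2 lower, against 37% of all loci called, 18.4% higher and 18.6% lower, so the members' share was below that of all loci. Their median was -0.06, against 0. At low temperature 0 of 9 members were called by edgeR at 2 mm, where 15% of all loci were called (7.67% higher, 7.3% lower), and 0 of 9 at 3 mm, where 11.7% were called (5.52% higher, 6.18% lower). By unadjusted p under 0.05, 1 member passed at 2 mm, GA2ox3, and 0 at 3 mm, and DESeq2 called 0 at either length. The members' median differences at low temperature were 0.18 at 2 mm and -0.03 at 3 mm.

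**Figure D2:**
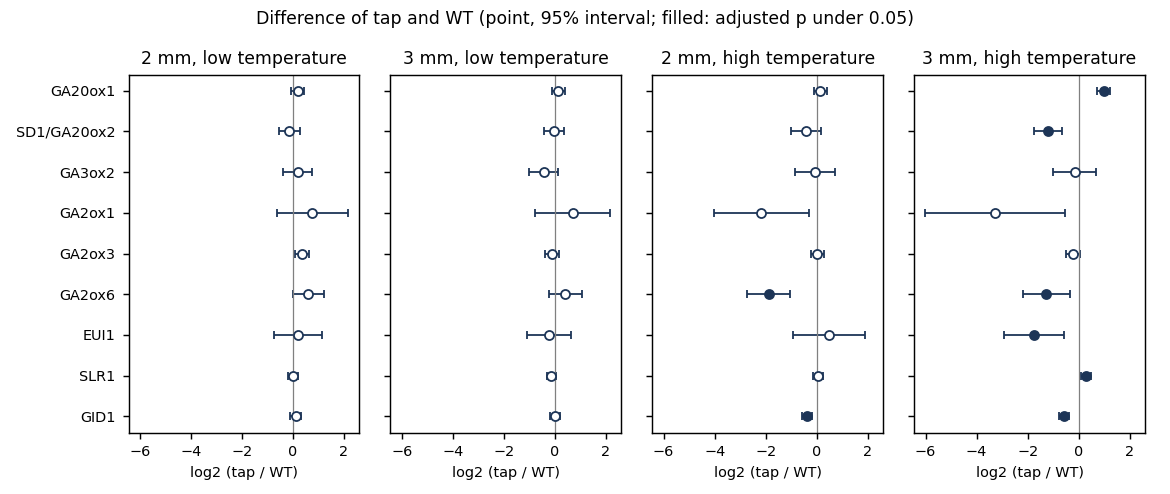
Difference between tap and WT for the 9 genes (log2, horizontal axis, same scale in all panels) at each length and temperature. Points are estimates from the model over 24 libraries, lines are 95% intervals, and filled points have an adjusted p under 0.05. Filled points appear at high temperature only, 2 at 2 mm and 6 at 3 mm.

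Among the synthesis genes, GA20ox1 was called higher in tap at 3 mm and high temperature. Its 3 tap libraries there held 37.3, 40.3 and 37.9 CPM, and its 3 WT libraries held 15.9, 22.5 and 20.3 CPM. Every tap library lay above every WT library. The difference was 0.98 ± 0.13 (SE), or 1.97-fold (38.5 ± 1.58 against 19.6 ± 3.35 CPM, mean ± SD, n = 3; adjusted p = 3.56e-07). GA20ox1 encodes one of the 20-oxidases, which carry out successive oxidations on the way to active gibberellin. For 2 mm and high temperature the difference was 0.14 (95% interval -0.11 to 0.39, adjusted p = 0.38). At low temperature it was 0.18 at 2 mm (adjusted p = 0.348) and 0.13 at 3 mm (adjusted p = 0.58), and tap and WT libraries overlapped in all 3 of these comparisons.

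GA20ox1 was also called lower at 3 mm than at 2 mm in 3 of the 4 combinations of genotype and temperature. In WT at high temperature it fell from 38.4 ± 5.41 CPM at 2 mm to 19.6 ± 3.35 CPM at 3 mm (log2 -0.97 ± 0.13, adjusted p = 8.52e-06). At low temperature it fell with length in both genotypes, from 32.2 ± 5.07 to 20.7 ± 0.982 CPM in WT (-0.64, adjusted p = 0.0152) and from 36.6 ± 3.73 to 22.7 ± 2.49 CPM in tap (-0.69, adjusted p = 0.0021). In the mutant at high temperature the levels were 42.4 ± 2.42 CPM at 2 mm and 38.5 ± 1.58 CPM at 3 mm, a difference of -0.14 (adjusted p = 0.59). The genotype by length interaction at high temperature was 0.83 ± 0.17 (adjusted p = 0.0146). It was no longer called without replicate 3 of tap at 2 mm (0.78, adjusted p = 0.0503), without replicate 2 of WT at 2 mm (0.69, adjusted p = 0.0718), or in a fit of the 4 compared groups alone (adjusted p = 0.0791). The fall with length in WT at low temperature was not called without replicate 3 at 2 mm (adjusted p = 0.197), replicate 1 at 3 mm (0.0609) or replicate 2 at 3 mm (0.0546).

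With temperature, GA20ox1 was called in 1 of 4 comparisons. In tap at 3 mm it was higher at high temperature by 0.76 ± 0.12, or 1.70-fold (adjusted p = 3.15e-06), and the 3 high-temperature libraries lay above the 3 low-temperature ones. The other differences, high minus low temperature, were 0.25 in WT at 2 mm (adjusted p = 0.0686, or 0.0397 with a replicate block), -0.08 in WT at 3 mm (adjusted p = 0.586) and 0.21 in tap at 2 mm (adjusted p = 0.121). The genotype by temperature interaction at 3 mm was 0.85 ± 0.18 (adjusted p = 0.000698), and it was called whichever library was left out.

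SD1/GA20ox2, the other 20-oxidase gene among the members measured, had lower levels at high than at low temperature in all 4 combinations of genotype and length. At 2 mm the WT libraries held 1.64, 1.86 and 1.80 CPM at high temperature and 9.63, 10.4 and 9.95 CPM at low temperature. At 3 mm the WT libraries held 4.87, 1.72 and 3.41 CPM at high temperature and 15.3, 13.8 and 17.03 CPM at low temperature. The tap libraries at high temperature ranged from 0.96 to 1.77 CPM over both lengths, and those at low temperature from 7.67 to 16.3 CPM. High- and low-temperature libraries did not overlap in any combination. The falls were 5.64-fold in WT at 2 mm (adjusted p = 1.06e-10), 4.61-fold in WT at 3 mm (2.04e-10), 6.95-fold in tap at 2 mm (2.54e-11) and 10.4-fold in tap at 3 mm (2.24e-13).

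Between genotypes, SD1/GA20ox2 was called lower in tap at 3 mm and high temperature, by 1.21 ± 0.26 on the log2 scale, or 2.31-fold (1.45 ± 0.279 against 3.33 ± 1.58 CPM, adjusted p = 0.000527). The groups overlapped, because replicate 2 of WT, at 1.72 CPM, lay below the highest tap library, at 1.77 CPM. The difference stayed called whichever library was left out, and ranged from -1.52 to -0.83. The genotype by temperature interaction at 3 mm was -1.17 ± 0.32 (adjusted p = 0.00753), and -0.79 (adjusted p = 0.0652) without replicate 1 of WT at 3 mm and high temperature. The other genotype differences were -0.44 at 2 mm and high temperature (adjusted p = 0.241), -0.14 at 2 mm and low temperature (0.709) and -0.03 at 3 mm and low temperature (0.944).

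With length, the differences of SD1/GA20ox2 had the opposite sign to those of GA20ox1, and 1 of 4 was called. In WT at high temperature it was higher at 3 mm than at 2 mm by 0.92 (adjusted p = 0.0243), but 1 library decided the size: without replicate 1 of WT at 3 mm the difference was 0.54 (adjusted p = 0.26). The call was also lost without replicate 1, 2 or 3 of WT at 2 mm (adjusted p = 0.0639, 0.0711 and 0.0657), without replicate 3 of WT at 3 mm (0.054), and with the compared groups alone (0.122). At low temperature all 3 mm libraries lay above all 2 mm libraries in each genotype, with differences of 0.62 in WT (adjusted p = 0.196) and 0.73 in tap (adjusted p = 0.0505). The tap difference at low temperature passed the threshold with DESeq2 (adjusted p = 0.0148) and with the compared groups alone (0.000241), and the WT difference with the compared groups alone (0.035).

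GA3ox2 encodes the 3-oxidase that makes the bioactive forms in most rice tissues. Its counts per library ranged from 6 to 20 in the high-temperature set and from 42 to 83 in the low-temperature set, without overlap in any combination. At high temperature WT had 0.677 ± 0.303 CPM at 2 mm and 0.600 ± 0.114 CPM at 3 mm, and tap had 0.646 ± 0.296 and 0.537 ± 0.252 CPM. At low temperature the levels were, in the same order, 2.33 ± 0.570, 3.39 ± 0.465, 2.64 ± 0.162 and 2.50 ± 0.308 CPM. The falls with temperature were 3.42-fold (adjusted p = 2.91e-05), 5.60-fold (1.24e-07), 4.05-fold (3.96e-06) and 4.61-fold (1.69e-06), again in that order. No genotype difference in GA3ox2 was called, with adjusted p-values from 0.35 to 0.933. The 95% intervals at high temperature were -0.86 to 0.73 for 2 mm and -0.99 to 0.68 for 3 mm. Differences anywhere within those intervals remain compatible with these counts.

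Among the inactivation genes, GA2ox6 had the lower level in tap at both lengths under high temperature. At 2 mm the tap libraries held 0.0963, 0.264 and 0.640 CPM (2, 5 and 12 counts), and the WT libraries 1.23, 1.11 and 1.34 CPM. At 3 mm the tap libraries held 0.298, 0.331 and 0.259 CPM, and the WT libraries 0.761, 0.624 and 0.775 CPM. Tap and WT libraries did not overlap at either length. GA2ox6 encodes a 2-oxidase, an enzyme class that makes gibberellin inactive by hydroxylation. The difference was -1.88 ± 0.42 at 2 mm, or 3.69-fold (0.333 ± 0.278 against 1.22 ± 0.115 CPM, adjusted p = 0.000698), and -1.27 ± 0.46 at 3 mm, or 2.41-fold (0.296 ± 0.0363 against 0.720 ± 0.0834 CPM, adjusted p = 0.0289). With single libraries left out the first difference ranged from -2.73, without replicate 3 of tap at 2 mm, to -1.43, and it stayed called. The second was not called without replicate 1, 2 or 3 of tap at 3 mm (adjusted p = 0.0639, 0.0516 and 0.0817) or without replicate 1 or 3 of WT at 3 mm (0.0704 and 0.0672).

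At low temperature the GA2ox6 level of 2 mm inflorescences was 3.17 ± 0.645 CPM in the mutant and 2.08 ± 0.599 CPM in WT, and that of 3 mm inflorescences 1.95 ± 0.496 CPM in the mutant and 1.46 ± 0.268 CPM in WT. These genotype differences, 0.60 (adjusted p = 0.184) and 0.41 (adjusted p = 0.459), had the opposite sign to those at high temperature and were not called. The genotype by temperature interaction was called at 2 mm (-2.49 ± 0.51, adjusted p = 0.000561). Leaving out the highest tap library at 2 mm and high temperature, replicate 3, enlarged it to -3.32. It was also called at 3 mm (-1.68 ± 0.56, adjusted p = 0.025), but not without replicate 3 of tap at high temperature (0.0566), replicate 2 of tap at low temperature (0.0669) or replicate 2 of WT at low temperature (0.0507). The fall of GA2ox6 from low to high temperature was 9.53-fold in tap at 2 mm (adjusted p = 1.17e-08) and 6.48-fold in tap at 3 mm (8.74e-07). Leaving out replicate 3 of tap at 2 mm and high temperature, the highest of its group, enlarged the first of these on the log2 scale from -3.25 to -4.09. In WT the fall was 1.70-fold at 2 mm (adjusted p = 0.0399) and 2.02-fold at 3 mm (0.0142). The WT call at 2 mm was lost without replicate 1, 2 or 3 at high temperature (adjusted p = 0.0739, 0.102 and 0.0566) or replicate 3 at low temperature (0.225), and the 3 mm call without replicate 1 of its low-temperature group (0.0538).

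GA2ox1, another 2-oxidase gene, had few counts in all groups, and the fewest in tap at high temperature. Its counts at 2 mm were 4, 0 and 1 in the tap libraries and 9, 11 and 4 in the WT libraries, whose CPM ranges did not overlap. At 3 mm they were 1, 0 and 0 in tap and 2, 6 and 5 in WT. Here too the ranges did not overlap, and the ratio of WT to tap was 12.8 with a 95% counting interval from 1.93 to 545.8. That interval covers counting error only. Neither difference was called by edgeR (adjusted p = 0.0596 at 2 mm and 0.0533 at 3 mm), while DESeq2 called that at 3 mm (adjusted p = 0.0328). When single libraries were left out, the adjusted p spanned 0.024 to 0.187 for the 2 mm difference and 0.0204 to 0.141 for the 3 mm one.

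At low temperature the tap libraries held 0, 22 and 10 counts of GA2ox1 at 2 mm and 12, 8 and 8 at 3 mm, and the WT libraries 4 to 9. In tap at 3 mm GA2ox1 was called lower at high than at low temperature, with 1 count against 28, a ratio of 24.9 (95% counting interval 4.12 to 1019, adjusted p = 0.00233). In tap at 2 mm it was also called lower (adjusted p = 0.0144), although the ranges overlapped. That call was lost without replicate 2 or 3 of tap at high temperature (0.0724 and 0.0521) or replicate 2 of tap at low temperature (0.228). GA2ox1 reached 10 counts in 1 high-temperature library, of WT, and 3 low-temperature libraries, all of tap, so it passed the filter largely through the group in which it was higher, and its falls in tap are given as a description. In WT the differences were 0.49 at 2 mm (adjusted p = 0.561) and -0.24 at 3 mm (0.809). The genotype by temperature interactions of -2.95 at 2 mm (adjusted p = 0.0549) and -3.99 at 3 mm (0.0521) were not called, while DESeq2 called the second (0.0340). These interactions use the same low-temperature tap libraries and are likewise given as a description.

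EUI1, the P450 that inactivates gibberellins by epoxidation, was called lower in tap at 3 mm and high temperature. The tap libraries held 2, 4 and 6 counts (0.0992, 0.221 and 0.311 CPM), and the WT libraries 23, 12 and 7 counts (1.17, 0.624 and 0.361 CPM). The ranges did not overlap, but the highest tap library lay close to the lowest WT library. The difference was -1.75 ± 0.57, or 3.37-fold (0.210 ± 0.106 against 0.718 ± 0.411 CPM, adjusted p = 0.0155). It was -1.40 (adjusted p = 0.0791) without replicate 1 of tap and -1.21 (adjusted p = 0.154) without replicate 1 of WT. At 2 mm and high temperature both genotypes had 2 to 7 counts per library, and the difference was 0.48 (adjusted p = 0.632).

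In WT at high temperature EUI1 was higher at 3 mm than at 2 mm, 4.12-fold (0.718 ± 0.411 against 0.170 ± 0.0795 CPM, adjusted p = 0.0312). The call was lost without replicate 1 or 2 of WT at 2 mm (0.0734 and 0.157) or replicate 1 or 2 at 3 mm (0.21 and 0.0589). At low temperature WT had 0.664 ± 0.125 CPM at 2 mm and 1.17 ± 0.181 CPM at 3 mm, and the mutant had 0.756 ± 0.347 and 0.992 ± 0.477 CPM. EUI1 fell from low to high temperature in WT at 2 mm (-1.93, adjusted p = 0.00495), in tap at 2 mm (-1.64, adjusted p = 0.00892) and in tap at 3 mm (-2.21, adjusted p = 0.000675). At high temperature EUI1 reached 10 counts in 2 of 12 libraries, both WT at 3 mm. It thus passed the filter on low counts chiefly through the low-temperature groups in which it was higher. Its calls with temperature, with length in WT and between genotypes at 3 mm are therefore given as a description. The fall in tap at 2 mm was not called without replicate 2 of its low-temperature group (0.0571). For WT at 3 mm the difference was -0.69 (adjusted p = 0.17), and -1.23 (adjusted p = 0.0392) without replicate 1 at high temperature.

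GA2ox3, also a 2-oxidase gene, had the higher mean level at high temperature in all 4 combinations, and the difference was called in 1. At high temperature WT had 17.8 ± 1.88 CPM at 2 mm and 21.5 ± 1.61 CPM at 3 mm, and the mutant had 18.1 ± 2.12 and 18.3 ± 1.14 CPM. At low temperature WT had 11.6 ± 0.326 CPM at 2 mm and 18.9 ± 3.72 CPM at 3 mm, and the mutant had 15.0 ± 1.68 and 17.6 ± 2.28 CPM. The lowest group was WT at 2 mm and low temperature, whose 3 libraries (11.9, 11.6 and 11.2 CPM) lay below the 3 tap libraries (16.5, 15.2 and 13.2 CPM). That genotype difference of 0.37 was not called (adjusted p = 0.0644, or 0.0235 with the compared groups alone). GA2ox3 in WT at 2 mm was 1.53-fold higher at high than at low temperature (adjusted p = 0.000219). In WT at low temperature it was 1.63-fold higher at 3 mm than at 2 mm (adjusted p = 0.0131), a call lost without replicate 3 at 2 mm (0.141), replicate 1 at 3 mm (0.0536) or replicate 3 at 3 mm (0.0644).

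Among the signalling genes, the receptor gene GID1 was lower in tap at both lengths under high temperature. At 2 mm the tap libraries held 247, 232 and 267 CPM and the WT libraries 289, 323 and 362 CPM. At 3 mm the tap libraries held 164, 222 and 199 CPM and the WT libraries 306, 273 and 293 CPM. No tap library reached the lowest WT library at either length. The difference was -0.38 ± 0.10 at 2 mm (adjusted p = 0.00329) and -0.58 ± 0.10, or 1.49-fold, at 3 mm (adjusted p = 4.24e-05), and both were called whichever library was left out. At low temperature the differences were 0.11 at 2 mm (95% interval -0.09 to 0.32, adjusted p = 0.522) and 0.00 at 3 mm (-0.21 to 0.21, adjusted p = 0.999).

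GID1 was called higher at high temperature in WT at both lengths and lower in tap at 3 mm. In WT at 2 mm it was called higher at high temperature (0.34, adjusted p = 0.00461; 325 ± 36.2 against 257 ± 13.1 CPM). In tap at 3 mm it was called lower (-0.34, adjusted p = 0.004; 195 ± 29.5 against 247 ± 13.4 CPM). The first call was lost with upper-quartile scaling (0.23, adjusted p = 0.0501), and the second without replicate 1 of tap at high temperature (-0.22, adjusted p = 0.0697). The difference in WT at 3 mm, 0.24 (adjusted p = 0.0393), was not called with RLE scaling (0.068), upper-quartile scaling (0.286), DESeq2 (0.0602), the compared groups alone (0.0591) or a stricter filter (0.0843). It was also lost without replicate 2 of WT at 2 mm and high temperature (0.0503), replicate 1 or 3 at 3 mm and high temperature (0.119 and 0.0751), or replicate 1 or 2 at 3 mm and low temperature (0.171 and 0.092). In tap at 2 mm the difference was -0.16 (adjusted p = 0.159). The genotype by temperature interaction was -0.50 ± 0.14 at 2 mm (adjusted p = 0.0102) and -0.58 ± 0.14 at 3 mm (adjusted p = 0.00326), and both held whichever library was left out. Upper-quartile scaling moved the median of all loci by -0.10 in WT at 2 mm and -0.11 in WT at 3 mm relative to TMM.

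SLR1, the DELLA repressor of the pathway, was called higher in tap at 3 mm and high temperature by a small margin. The tap libraries held 329, 354 and 350 CPM and the WT libraries 279, 299 and 265 CPM, without overlap. The difference was 0.29 ± 0.09, or 1.23-fold (344 ± 13.5 against 281 ± 17.1 CPM, adjusted p = 0.0134), and 0.25 (adjusted p = 0.0633) without replicate 3 of WT. In 2 mm inflorescences at high temperature it was 0.04 (adjusted p = 0.8), at 2 mm and low temperature -0.01 (0.98) and at 3 mm and low temperature -0.13 (0.414). SLR1 fell from low to high temperature in all 4 combinations without overlap, by 1.44-fold in WT at 2 mm (adjusted p = 1.25e-05), 1.58-fold in WT at 3 mm (3.1e-07), 1.40-fold in tap at 2 mm (3.6e-05) and 1.18-fold in tap at 3 mm (0.0236). The last of these was lost without replicate 1 of tap at high temperature (0.102) or replicate 2 or 3 of tap at low temperature (0.069 and 0.075). The fall at 3 mm was thus smaller in tap than in WT, with a genotype by temperature interaction of 0.42 ± 0.13 (adjusted p = 0.0167).

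The comparison of high with low temperature asked how the same genotype and length differed between the 2 conditions. SD1/GA20ox2, GA3ox2, GA2ox6 and SLR1 were called lower at high temperature in all 4 combinations, and EUI1 in 3. The share of all loci called lower in all 4 is not given, so this recurrence is not set against the other loci. In WT at 2 mm, 2 of 9 members were called higher and 5 lower, against 63.8% of all loci called, 29.8% higher and 34.1% lower. In WT at 3 mm, 1 was called higher and 4 lower, against 65.8% called, 30.8% higher and 35% lower. In tap at 2 mm, 0 were called higher and 6 lower, against 69% called, 32.5% higher and 36.5% lower. In tap at 3 mm, 1 was called higher and 7 lower, against 68.6% called, 32.9% higher and 35.7% lower. The total called was below the share of all loci in WT at 3 mm and tap at 2 mm and above it in WT at 2 mm and tap at 3 mm, and most calls were falls. The median difference of the members was -0.53, -0.66, -1.64 and -2.21 in these comparisons, against -0.05, -0.05, -0.05 and -0.04 over all loci. Loci absent at low temperature are not in the table, and both EUI1 and GA2ox1 fail a minimum of 10 counts in 3 libraries at each temperature, so their falls, and the medians that include them, depend on that selection. With that minimum 6, 4, 4 and 6 of the remaining 7 members were called.

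Markers of meristem, tapetum and leaf also differed between the temperatures. Summed meristem markers were higher at high than at low temperature without overlap in all 4 combinations, with 2047 to 2231 against 1266 to 1360 CPM in WT at 2 mm, 1512 to 1835 against 1099 to 1199 CPM in WT at 3 mm, 2052 to 2494 against 1571 to 1672 CPM in tap at 2 mm and 1837 to 2258 against 1368 to 1426 CPM in tap at 3 mm. In the same order, 5, 4, 3 and 5 of 8 were called higher and 2, 2, 3 and 3 lower. TAW1 and FZP went against the sums, with lower means at high temperature in all 4 combinations. In tap at 3 mm TAW1 had 2.76 against 28.0 CPM and FZP 1.40 against 6.87 CPM. MADS1 went against the sums in tap, with 58.3 against 151 CPM at 2 mm and 89.8 against 175 CPM at 3 mm. In WT MADS1 was higher at high temperature, with 322 against 129 CPM at 2 mm and 307 against 159 CPM at 3 mm. Summed tapetum markers were lower in every high-temperature library (2.18 to 5.42 CPM) than in every low-temperature library (5.49 to 9.46 CPM), and 2, 1, 2 and 2 of the 2 tested were called lower. Of 6 leaf markers 2, 2, 5 and 3 were called higher and 0, 3, 0 and 1 lower. Summed leaf markers were lower at high than at low temperature in WT at 3 mm (32.2 to 46.2 against 87.3 to 207.5 CPM). In the other combinations the leaf sums of the temperatures overlapped. The part of these tissues in the falls of the gibberellin genes was not tested. The genotype and temperature comparisons share libraries, so their values are not independent of each other.

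**Figure D3:**
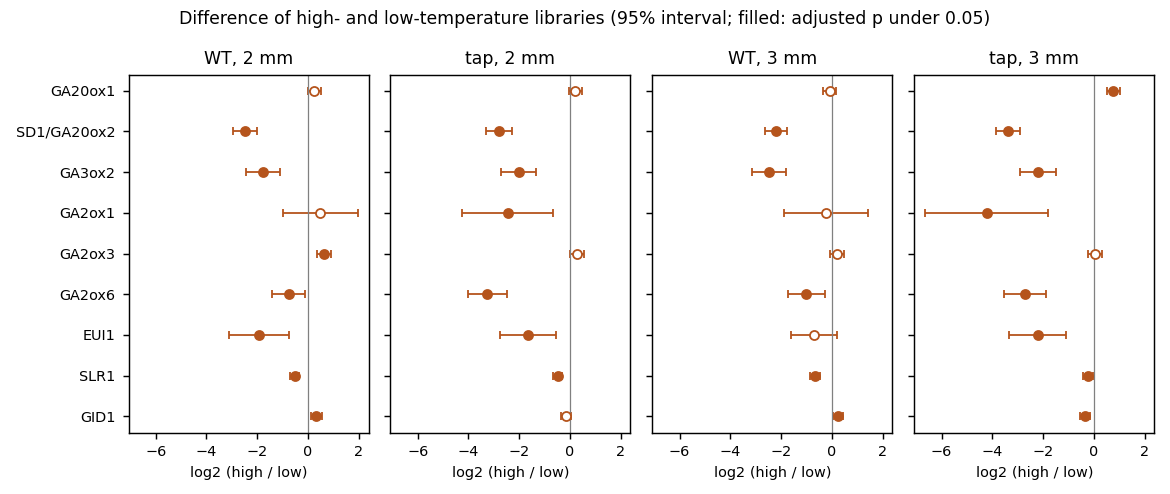
Difference between high and low temperature for the 9 genes (log2, horizontal axis, same scale in all panels) in each genotype and length. Points are estimates from the model over 24 libraries, lines are 95% intervals, and filled points have an adjusted p under 0.05. SD1/GA20ox2, at -2.20 to -3.38, and GA3ox2, at -1.77 to -2.49, lie left of 0 in every panel.

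The genotype by temperature interaction asked whether the difference between tap and WT itself differed between the temperatures. At 2 mm it was called below 0 for 2 members, GA2ox6 and GID1, and above 0 for 0, against 26.8% of all loci called, 13.2% above 0 and 13.6% below. At 3 mm it was called above 0 for GA20ox1 and SLR1 and below 0 for SD1/GA20ox2, GA2ox6 and GID1, against 26.4% of all loci called, 14.3% above 0 and 12% below. The members' median interaction was -0.30 at 2 mm and -0.58 at 3 mm, against 0.00 over all loci at each length. Both medians include EUI1 and GA2ox1, which passed the filter on low counts largely through low-temperature groups, so these medians depend on that selection.

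Few loci differed with length, and GA20ox1 was called in 3 of the 4 comparisons of 3 mm with 2 mm. In WT at high temperature 2 of 9 members were called higher at 3 mm and 1 lower, against 6.37% of all loci called, 2.65% higher and 3.72% lower. In tap at high temperature 0 were called by edgeR, against 2.21% called, 1.44% higher and 0.774% lower. In that comparison 2 members had an unadjusted p under 0.05, and DESeq2 called 1, GID1 (log2 -0.37, adjusted p = 0.0185), whose edgeR difference was -0.35 (adjusted p = 0.0572, or 0.0498 with a replicate block). In WT at low temperature 1 was called higher and 1 lower, against 0.368% called, 0.22% higher and 0.148% lower. In tap at low temperature 1 was called, lower, against 1.33% called, 0.558% higher and 0.774% lower. The genotype by length interaction at high temperature was called for 1 member, GA20ox1, above 0, against 1.27% of all loci, 0.744% above 0 and 0.528% below. At low temperature edgeR called 0 members and 0% of all loci for that interaction. There, 1 member had an unadjusted p under 0.05, and DESeq2 called 0 members.

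The pattern over the 8 group means was described for pairs of members by the correlation of their mean log2 CPM, with no test, since all 8 points share libraries between genes. The 8 points span both temperatures, so genes that fall with temperature have a high r through that fall. No r within a temperature or over all loci is given, and EUI1 and GA2ox1 have few counts. The pair with the highest Pearson r was SD1/GA20ox2 and GA3ox2 (r = 0.96, Spearman rho = 0.81). EUI1 was most like SD1/GA20ox2 (r = 0.93, rho = 0.88), SLR1 was most like GA3ox2 (r = 0.92, rho = 0.76), and GA2ox1 and GA2ox6 were most like each other (r = 0.86, rho = 0.71). GID1 was most like GA2ox1 (r = 0.71, rho = 0.40). GA20ox1 had no positive partner, its highest r being -0.11 with GID1, and the highest r of GA2ox3 was -0.01, also with GID1.

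A further list of 17 loci of the pathway, assembled from general knowledge of rice locus identifiers and annotated by none of the files, had 14 loci in the table and 13 tested. Between tap and WT at high temperature, 5 of the 13 were called higher in tap and 2 lower for 2 mm, and 6 higher and 1 lower for 3 mm. Of all loci, 18.4% were called higher and 18.6% lower for 2 mm, and 19.3% and 17.8% for 3 mm. At low temperature the counts were 3 higher for 2 mm and 4 higher for 3 mm, with 0 lower, against 7.67% higher and 7.3% lower of all loci for 2 mm and 5.52% and 6.18% for 3 mm. The median differences were 0.20, 0.31, -0.02 and 0.07, against 0, 0, 0.01 and 0.00 over all loci. From low to high temperature, 3 were called higher and 6 lower in WT at 2 mm, 3 and 7 in WT at 3 mm, 3 and 7 in tap at 2 mm, and 1 and 7 in tap at 3 mm. The share of all loci called in these comparisons was 63.8%, 65.8%, 69% and 68.6%, so the totals of 9, 10, 10 and 8 of 13 were near that of all loci.

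One locus of that list, LOC_Os05g48700, differed between the genotypes in opposite directions at the 2 temperatures. At 2 mm and high temperature the tap libraries held 26.1, 31.2 and 22.9 CPM and the WT libraries 104, 129 and 98.6 CPM. At low temperature the order was turned, the mutant libraries holding 81.8, 60.2 and 63.0 CPM and the WT libraries 27.0, 31.7 and 36.6 CPM. Neither pair of groups overlapped. The differences were -2.05 at high temperature, or 4.14-fold (adjusted p = 8.77e-08), and 1.10 at low temperature, or 2.15-fold (adjusted p = 0.00044). At 3 mm they were -1.24 (adjusted p = 4.94e-05) and 0.99 (adjusted p = 0.00189), again without overlap. The interactions of -3.15 at 2 mm (adjusted p = 6.3e-08) and -2.23 at 3 mm (7.33e-06) were called whichever library was left out. Within WT the locus was called higher at high temperature, by 1.80 at 2 mm and 1.40 at 3 mm, and within tap lower, by -1.35 and -0.83.

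LOC_Os02g36974 was called higher in tap in all 4 genotype comparisons, without overlap in any. Its differences were 0.38 (adjusted p = 0.00238) and 0.51 (8.86e-05) at high temperature and 0.41 (0.00284) and 0.39 (0.00603) at low temperature, for 2 mm and 3 mm in turn. LOC_Os01g45860 was also called higher in all 4, by 0.38 (adjusted p = 0.0282) and 0.68 (0.00029) at high temperature and 0.55 (0.00481) and 0.41 (0.0418) at low temperature. Its groups overlapped at 2 mm and high temperature, where the difference was 0.13 (adjusted p = 0.407) without replicate 2 of tap and was not called without replicate 1 or 3 of WT (0.0728 and 0.0695) or with the compared groups alone (0.13). Its call at 3 mm and low temperature was lost without replicate 2 of tap at 2 mm (0.0506), and without any of the 6 libraries compared (0.0673 to 0.125), and with upper-quartile scaling (0.072). No share of all loci called higher in all 4 genotype comparisons is given, so the recurrence of either locus is not set against other loci.

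Other loci of the list were called in 1 or 2 of the genotype comparisons without overlap. LOC_Os05g34854 was higher in tap at high temperature, by 1.04 at 2 mm (adjusted p = 0.00241) and 0.77 at 3 mm (0.0197). The second call was lost without replicate 3 of tap (0.52, adjusted p = 0.161), replicate 2 of WT (0.0767) or replicate 3 of WT (0.062), and with the compared groups alone (0.0747). LOC_Os06g02019 was higher in tap at 3 mm, by 0.69 at high temperature (adjusted p = 4.89e-05) and 0.38 at low temperature (0.0302). The low-temperature call was lost without replicate 1 or 2 of tap (0.181 and 0.0615) or replicate 3 of WT (0.184). At 2 mm and high temperature LOC_Os02g17780 was higher by 0.98 (adjusted p = 0.00419) and LOC_Os05g11810 by 0.51 (0.00154), while LOC_Os02g41954 was lower by -0.85 (0.048), a call lost when any of 12 libraries was left out. It was also lost with RLE scaling (0.0522), upper-quartile scaling (0.0642), no filter (0.0561) and a replicate block (0.0532). At 3 mm and high temperature LOC_Os01g11150 was higher by 0.99 (adjusted p = 0.00396). LOC_Os05g11810 was called higher there as well (0.35, adjusted p = 0.0268), with overlapping groups, and at 0.14 (adjusted p = 0.39) without replicate 2 of tap, 0.29 (0.119) without replicate 1 of WT and 0.32 (0.0772) without replicate 2 of WT, and not called with the compared groups alone (0.103).

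**Figure D4:**
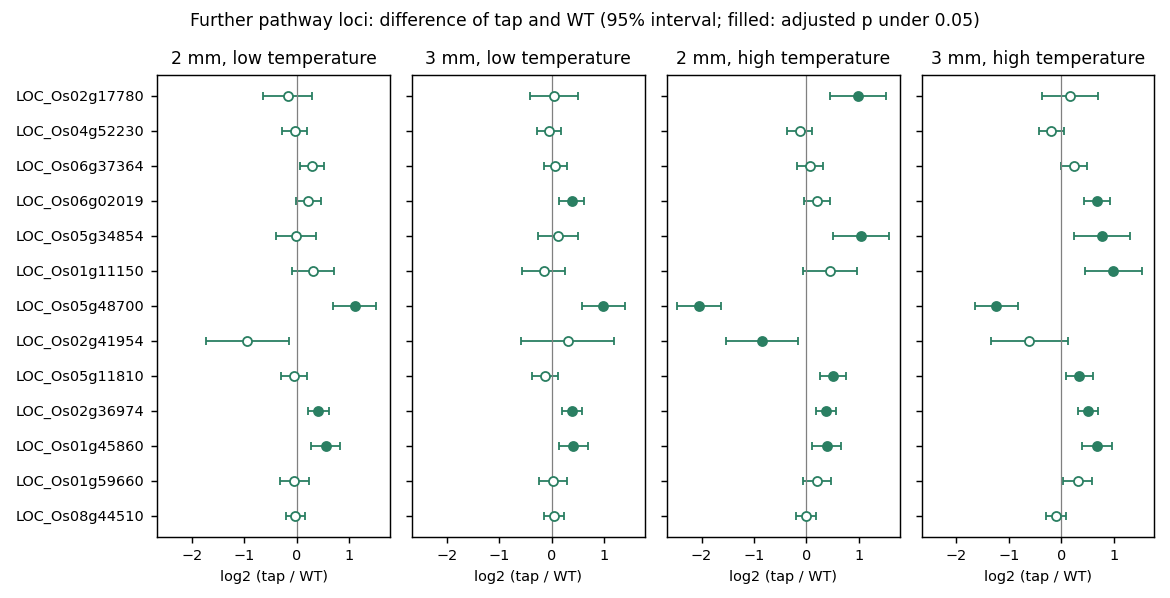
Difference between tap and WT for the 13 further loci tested (log2, horizontal axis, same scale in all panels) at each length and temperature, with 95% intervals and filled points at an adjusted p under 0.05. LOC_Os05g48700 lies left of 0 at high temperature (-2.05 and -1.24) and right of 0 at low temperature (1.10 and 0.99).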

How the data were processed

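Per the labels, RNeasy and SMARTER mRNA kits were used for RNA and libraries. Reads were handled with HTSeq, HISAT2 and Trimmomatic on build IRGSP-1.0, per the submitters' processing notes; versions, annotation and strand setting are not given there. The authors deposited raw read counts per locus in 1 table of 26480 loci. The files pair no locus with a name: the names are those given with the choice of loci, and 5 of the 10 symbols are in RefSeq's gene table, all 5 on the chromosome of the locus number. No sequences were used. The genes and lists were chosen with earlier results of these data known. All members are described, and of the further list each locus called between genotypes without overlap.

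A total of 70 loci with no value in some high-temperature columns were left out. All 24 libraries were fitted in edgeR 4.0.16 (limma 3.58.1, R 4.3.3): TMM, filterByExpr (23658 loci), quasi-likelihood F test with robust dispersions, 1 mean per group, 16 residual degrees of freedom, 16 contrasts, Benjamini-Hochberg adjustment within each. Interactions are the tap minus WT difference at high temperature, or at 3 mm, minus that at low temperature, or at 2 mm. The script was tested on simulated data. Alternatives were RLE and upper-quartile scaling, no filter, a minimum of 10 counts in 3 libraries at each temperature, the compared groups alone, a replicate block, a test against 1.5-fold, DESeq2 1.42.0 and leaving out each library. Replicate pairs differed by more than counting noise (chi-square per degree of freedom 3.39 to 30.8), so none was merged.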

Additional observations from a re-analysis of the deposited data

Results flagged for a closer look

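For the following genes the difference between tap and WT itself differed between conditions, by the interaction term of the edgeR model (log2, adjusted p over all loci). With 3 libraries per group no single library could be tested as an outlier. At 2 mm, the genotype difference differed between the temperatures for GA2ox6 (-2.49, adjusted p = 0.000561), GID1 (-0.50, 0.0102), LOC_Os05g48700 (-3.15, 6.3e-08), LOC_Os02g17780 (1.15, 0.0146), LOC_Os05g34854 (1.06, 0.0148) and LOC_Os05g11810 (0.56, 0.0159). Of these, LOC_Os02g17780 was not called without replicate 3 of WT at 2 mm and high temperature (0.94, 0.0572), and LOC_Os05g11810 not without replicate 1 of tap at 2 mm and low temperature (0.50, 0.0502).

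At 3 mm, it differed between the temperatures for GA20ox1 (0.85, adjusted p = 0.000698), SD1/GA20ox2 (-1.17, 0.00753), GA2ox6 (-1.68, 0.025), SLR1 (0.42, 0.0167), GID1 (-0.58, 0.00326), LOC_Os05g48700 (-2.23, 7.33e-06), LOC_Os01g11150 (1.14, 0.0114) and LOC_Os05g11810 (0.48, 0.0391). The last was not called without replicate 2 of tap (0.27, 0.212) or replicate 1 or 2 of WT at high temperature (0.1 and 0.0744), without replicate 2 or 3 of tap (0.0685 and 0.0889) or replicate 3 of WT (0.134) at low temperature, or with the compared groups alone (0.0814). Between the lengths at high temperature, the genotype difference differed for GA20ox1 (0.83, adjusted p = 0.0146). That of GA20ox1 with length was not called without replicate 3 of tap (0.0503) or replicate 2 of WT (0.0718) at 2 mm. At 3 mm, the temperature interaction of SD1/GA20ox2 was not called without replicate 1 of WT at high temperature (-0.79, 0.0652), and that of GA2ox6 not without replicate 3 of tap at high temperature (0.0566), replicate 2 of tap at low temperature (0.0669) or replicate 2 of WT at low temperature (0.0507).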

How the results depend on the processing

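Over 9 genes and 16 contrasts (144 results), no alternative reversed the direction of a called difference. The calls of 142 of the 144 were the same with RLE scaling, with upper-quartile scaling, with no filter and with the replicate block, 139 with DESeq2, 118 with the compared groups alone (3 calls gained and 3 lost), 111 with the stricter filter (1 lost), and 115 with the test against 1.5-fold (29 lost). The remaining results of the stricter filter and of the compared groups alone had no value, because their gene failed the filter of that fit.

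The number of members called moved in several fits, among them the following. Tested against 1.5-fold, it was 1 and 2 for tap against WT at 2 mm and 3 mm and high temperature, 3, 2 and 5 for temperature in WT at 2 mm, WT at 3 mm and tap at 3 mm, 0 for length in WT at either temperature and in tap at low temperature, 1 and 0 for the temperature interaction at 2 mm and 3 mm, and 0 for the length interaction at high temperature. With the compared groups alone it was 1 for tap against WT at 2 mm and low temperature, 1 for length in WT at high temperature, 2 for length in tap at low temperature and 0 for the length interaction at high temperature. For length in tap it was 1 at high temperature with the replicate block or DESeq2, and 2 at low temperature with RLE, no filter or DESeq2.

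Leaving out each library gave 2 to 3 and 4 to 7 members for tap against WT at high temperature (2 mm, 3 mm) and 0 to 1 and 0 at low temperature. It gave 6 to 8, 3 to 5, 4 to 7 and 6 to 8 for temperature in WT at 2 mm, WT at 3 mm, tap at 2 mm and tap at 3 mm. For length it gave 1 to 3 in WT and 0 to 1 in tap at high temperature, and 0 to 2 in WT and 1 to 2 in tap at low temperature. For the temperature interaction it gave 2 to 3 at 2 mm and 4 to 6 at 3 mm, and for the length interaction 0 to 1 at high and 0 at low temperature. Over all loci, tap against WT gave 6717 to 9248 and 6904 to 9127 at high temperature and 2408 to 3933 and 1784 to 3198 at low temperature (2 mm, 3 mm). Temperature gave 14211 to 15549 and 14507 to 16009 in WT and 15362 to 16731 and 15382 to 16517 in tap. The temperature interaction gave 5185 to 7016 and 5136 to 6601. Counts of all loci for length are given below.

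Same-numbered libraries of different groups had r from -0.127 to 0.157 in their deviations from the group means (84 pairs, median 0.00127, 8 over 0.1). Other-numbered libraries of different groups had r from -0.227 to 0.261 (168 pairs, median 0.00265, 5 over 0.1). The medians were both near 0, but a larger share of the same-numbered pairs lay over 0.1. The replicate block was used as an alternative only. It changed 2 member calls, GA20ox1 with temperature in WT at 2 mm (adjusted p = 0.0397) and GID1 with length in tap at high temperature (0.0498). In the further list it ended 1 genotype call, LOC_Os02g41954 at 2 mm and high temperature (0.0532). Tested against 1.5-fold, 1 locus of that list was called between genotypes at each length under high temperature, against 7, and 0 at low temperature, against 3 and 4.

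Of counts over all loci, DESeq2 gave 1055 against 523 for length in tap at high temperature, 194 against 87 for length in WT at low temperature, and 600 against 301 for the length interaction at high temperature. The compared groups alone gave 5574 against 3542 for tap against WT at 2 mm and low temperature, 40 against 523 and 1189 against 315 for length in tap at high and low temperature, and 48 against 301 for that interaction. Tested against 1.5-fold, tap against WT gave 1650 against 8752 and 2033 against 8776 at high temperature and 589 against 3542 and 434 against 2768 at low temperature (2 mm, 3 mm). Temperature gave 7532 against 15104 and 7967 against 15556 in WT and 8742 against 16313 and 8850 against 16222 in tap. Length gave 123 against 1507 and 0 against 87 in WT and 2 against 523 and 15 against 315 in tap (high, low temperature). The interactions gave 1467 against 6344, 1391 against 6235 and 7 against 301. Leaving out each library, length gave 755 to 1871 in WT and 77 to 2298 in tap at high temperature and 4 to 102 in WT and 106 to 358 in tap at low temperature, and the length interaction at high temperature 111 to 622. The cause of these moves was not tested. Counts of at most 12 per library for GA2ox6 in tap and at most 7 for EUI1 at 2 mm, both at high temperature, limit the precision of their differences.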
